A study of Mus musculus with 4 samples.

Results

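The genes described here are 8 genes of the secondary granules of neutrophils, Ltf, Camp, Ngp, Lcn2, Cd177, Cebpe, Pglyrp1 and Ceacam10. They are rows picked by symbol, from a list drawn up with earlier results of these data known, and all 8 were found among the 31053 genes counted. Their unique molecular identifiers (UMIs, 1 per captured transcript) were followed in 32217 cell barcodes of 4 single-cell libraries, those with 1000 to 40000 UMIs and at most 10% mitochondrial UMIs. The libraries came from bone tissue of wild-type C57BL/6J mice, 2 untreated control mice (Ctrl) and 2 mice whose hind limbs had carried no load during 28 days of tail suspension (HLU), with 1 library per mouse. The bones taken were tibiae and femurs, from which the marrow was flushed out before enzymatic digestion and droplet capture (10x Genomics 3′ kit, version 3.1), so the haematopoietic cells are those that stayed with the bone. The series description places the animals at postnatal day 28 and the study's methods give a greater age, and the age of these mice is therefore not known here.

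Neutrophils load their granules in sequence while they mature. Progenitors make the proteases and myeloperoxidase of the primary granules, the myelocyte and metamyelocyte stages that follow make the proteins of the secondary (specific) granules, and the segmented cell carries the finished granules with little further synthesis. Among the members, Ltf encodes the iron-binding protein lactoferrin, Camp the cathelicidin antimicrobial peptide precursor, Ngp neutrophilic granule protein, a relative of the cathelicidins, and Lcn2 lipocalin 2, which binds the siderophores of bacteria. Pglyrp1 encodes a secreted protein that binds bacterial peptidoglycan, Cd177 a surface glycoprotein that is also kept in granule membranes, and Ceacam10 a secreted member of the carcinoembryonic antigen family. Cebpe encodes C/EBPε, the transcription factor that secondary granule genes require. Lcn2 is also made outside the neutrophil lineage, by epithelia, macrophages and skeletal cells in inflammation.

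Between 7340 and 9485 barcodes were kept per library, with a median of 3799 to 6294.5 UMIs each. Clusters were made without the 8 members, and 12 of 31 clusters carried markers of neutrophils or their progenitors. These cells, 2641 to 6090 per library, formed 4 stages: progenitors (Mpo, Elane and other primary granule genes), dividing immature neutrophils (immature markers with Mki67 and other mitotic genes), immature neutrophils (Fcnb, Chil3, Ifitm6 and the like) and mature neutrophils (Cxcr2, Il1b, Csf3r and the like). HLU replicate 2 stood apart from the other libraries. It held 99849070 UMIs against 47819046 to 61296053, in 10003 barcodes against 10000 in each other library. It had 267 barcodes under 1000 UMIs where the others held 2143 to 2585. The reason for this low count was not tested. Of its barcodes 230 exceeded 40000 UMIs and were left out, against 6 to 17 elsewhere. Its progenitors had a median of 22752 UMIs against 11334 to 12817. The regulator Cebpb was at 83.4 CPM in its immature neutrophils against 1252 to 1881 CPM elsewhere. Pairs of libraries shared 13 to 21 barcodes, and 431 to 720 barcodes per library were scored as likely doublets and kept. Levels are in CPM, the usual scaling of a gene's UMIs to the total UMIs of the cells named, and 4 values in a row are always in the order Ctrl replicate 1, Ctrl replicate 2, HLU replicate 1, HLU replicate 2.

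Ltf, Camp and Ngp lie on one stretch of mouse chromosome 9 (mm10), and all 8 members are protein-coding genes. Camp spans 109847379 to 109849617 on the minus strand, Ngp 110419747 to 110423012 on the plus strand and Ltf 111019271 to 111042767 on the plus strand. Between Camp and Ngp lie 570129 bases with 8 protein-coding genes, and between Ngp and Ltf 596258 bases with 20. Cd177 (chromosome 7, 24743983 to 24760311, minus strand) and Ceacam10 (24777206 to 24784657, plus strand) are neighbours with 16894 bases and 0 protein-coding genes between them. Pglyrp1 is further off on chromosome 7 (18871331 to 18890459), Lcn2 is on chromosome 2 (32384633 to 32388252) and Cebpe on chromosome 14 (54710360 to 54712174). RefSeq windows from 250 bases before to 50 bases after the transcript start (build GRCm38.p6, which is mm10) matched 7 members. The windows of Ngp (chr9:110419558-110419857, plus strand), Ltf (chr9:111019042-111019341, plus strand) and Camp (chr9:109849407-109849706, minus strand) are shown because these 3 genes on one chromosome had their highest levels in neighbouring stages. Capitals mark each match to the C/EBP motif TTNNGNAA on either strand.
Ngp: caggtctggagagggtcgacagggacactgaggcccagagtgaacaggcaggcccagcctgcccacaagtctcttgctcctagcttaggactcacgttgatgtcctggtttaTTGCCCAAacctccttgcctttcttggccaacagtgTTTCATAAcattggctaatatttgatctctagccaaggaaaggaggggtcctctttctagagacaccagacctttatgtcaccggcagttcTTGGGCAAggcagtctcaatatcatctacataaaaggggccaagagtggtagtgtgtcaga
Ltf: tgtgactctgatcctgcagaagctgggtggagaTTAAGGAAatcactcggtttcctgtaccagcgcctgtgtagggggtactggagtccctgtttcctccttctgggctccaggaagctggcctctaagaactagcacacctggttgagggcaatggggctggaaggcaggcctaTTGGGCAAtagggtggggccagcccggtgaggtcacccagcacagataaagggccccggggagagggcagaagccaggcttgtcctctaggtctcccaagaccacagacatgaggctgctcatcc
Camp: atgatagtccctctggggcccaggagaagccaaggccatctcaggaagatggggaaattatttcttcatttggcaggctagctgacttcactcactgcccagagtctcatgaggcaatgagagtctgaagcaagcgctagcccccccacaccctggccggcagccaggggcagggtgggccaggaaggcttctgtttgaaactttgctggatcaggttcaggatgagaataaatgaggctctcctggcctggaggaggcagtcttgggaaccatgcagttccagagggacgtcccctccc
The Ngp window held 3 matches, starting 138, 102 and 11 bases before the transcript start, the Ltf window 2 (217 and 75 bases before) and the Camp window 0. Lcn2 and Cd177 had 1 match each, so that 4 of 7 members held the motif. Among all 32851 windows of this length 40.7% held it. The PU.1 motif AGGAAGT was in 0 of 7 members' windows and 9.35% of all windows, and the GATA motif AGATAA was in 2 (Ltf and Pglyrp1) and 11.2% of all windows. None of the matches overlapped another.

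Along the stages, the members differed in where they appeared and in how much lower they were in mature neutrophils. These levels describe clusters, which were named from other genes, and carry no test. Camp and Ngp were present early. In progenitors Camp was at 14130, 16092, 14059 and 9760 CPM. Among stages it was highest in dividing immature neutrophils, at 25840, 40467, 30488 and 38083 CPM. In immature neutrophils as a whole it was at 21797, 25434, 22746 and 30614 CPM. The single cluster with the highest Camp was nevertheless a non-dividing immature one, cluster 8, except in Ctrl replicate 2, where it was dividing cluster 19. Mature neutrophils held 702, 1531, 1267 and 3833 CPM, and the level of immature over mature cells was between 7.99 and 31 fold in the 4 libraries. Ngp was at 16604, 15713, 14284 and 5864 CPM in progenitors and peaked in immature neutrophils at 33670, 34086, 29964 and 28273 CPM, except in Ctrl replicate 2, where dividing cells were slightly higher (37268 CPM). Mature neutrophils held 2298, 2571, 2731 and 4565 CPM of Ngp. In each library and for both genes, every immature stage lay above both the progenitors and the mature cells.

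Ltf came later. Its level was 382, 461, 414 and 144 CPM in progenitors and 1815, 2563, 2603 and 1836 CPM in dividing cells, and it was highest in immature neutrophils of all 4 libraries, at 3936, 4201, 4672 and 4259 CPM. From progenitors to immature neutrophils Ltf was 9.11 to 29.6 fold higher, whereas Camp was 1.54 to 3.14 fold and Ngp 2.03 to 4.82 fold higher over the same step. Mature neutrophils held 175, 168, 271 and 348 CPM of Ltf, which was 12.2 to 25 fold below the immature cells. Ceacam10 was higher than in progenitors by a similar factor (13.2 to 28.2 fold) but had few UMIs, 31, 44.7, 51.6 and 68.2 CPM in immature neutrophils.

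Cebpe, the regulator, was already high in progenitors, and immature neutrophils held 0.671 to 1.07 of the progenitor level. Progenitors held 353, 286, 324 and 299 CPM, dividing immature neutrophils 334, 418, 473 and 492 CPM, and immature neutrophils 237, 306, 332 and 269 CPM. It was highest in progenitors in Ctrl replicate 1 and in dividing cells in the other 3 libraries, and the step between those stages was 0.946 to 1.65 fold. By cluster it was highest in progenitor cluster 7 in Ctrl replicate 1 and in immature cluster 8 in Ctrl replicate 2 and HLU replicate 1. In HLU replicate 2 it was highest in dividing cluster 19. In mature neutrophils Cebpe was at 14.5, 27.9, 31.2 and 20.6 CPM, 10.6 to 16.3 fold below the immature cells. Relative to progenitors, mature cells had 0.0411 to 0.0976 of the Cebpe level. This ratio was the lowest among the members in Ctrl replicate 1 and HLU replicate 2, and in the other libraries that of Camp was slightly lower (0.0951 and 0.0901).

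Lcn2, Pglyrp1, Cd177 and Ceacam10 differed least between immature and mature neutrophils. Lcn2 was at 2296, 3192, 2524 and 6051 CPM in progenitors, at 9740, 12254, 9326 and 22230 CPM in immature neutrophils, and still at 3838, 5953, 3593 and 20316 CPM in mature neutrophils. The level of immature over mature cells was therefore 1.09 to 2.6 fold, lowest in HLU replicate 2. The same step was 2.04 to 3.12 fold for Pglyrp1, 1.57 to 2.78 fold for Ceacam10 and 3.13 to 4.81 fold for Cd177. Pglyrp1 stood at 1075, 1175, 1360 and 2217 CPM in immature and at 345, 514, 631 and 1087 CPM in mature neutrophils. Cd177 stood at 362, 423, 558 and 788 CPM in immature and at 75.2, 98.9, 151 and 252 CPM in mature neutrophils. These ratios did not overlap those of Ltf, Camp, Ngp and Cebpe, which began at 6.19 fold.

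**Figure D1:**
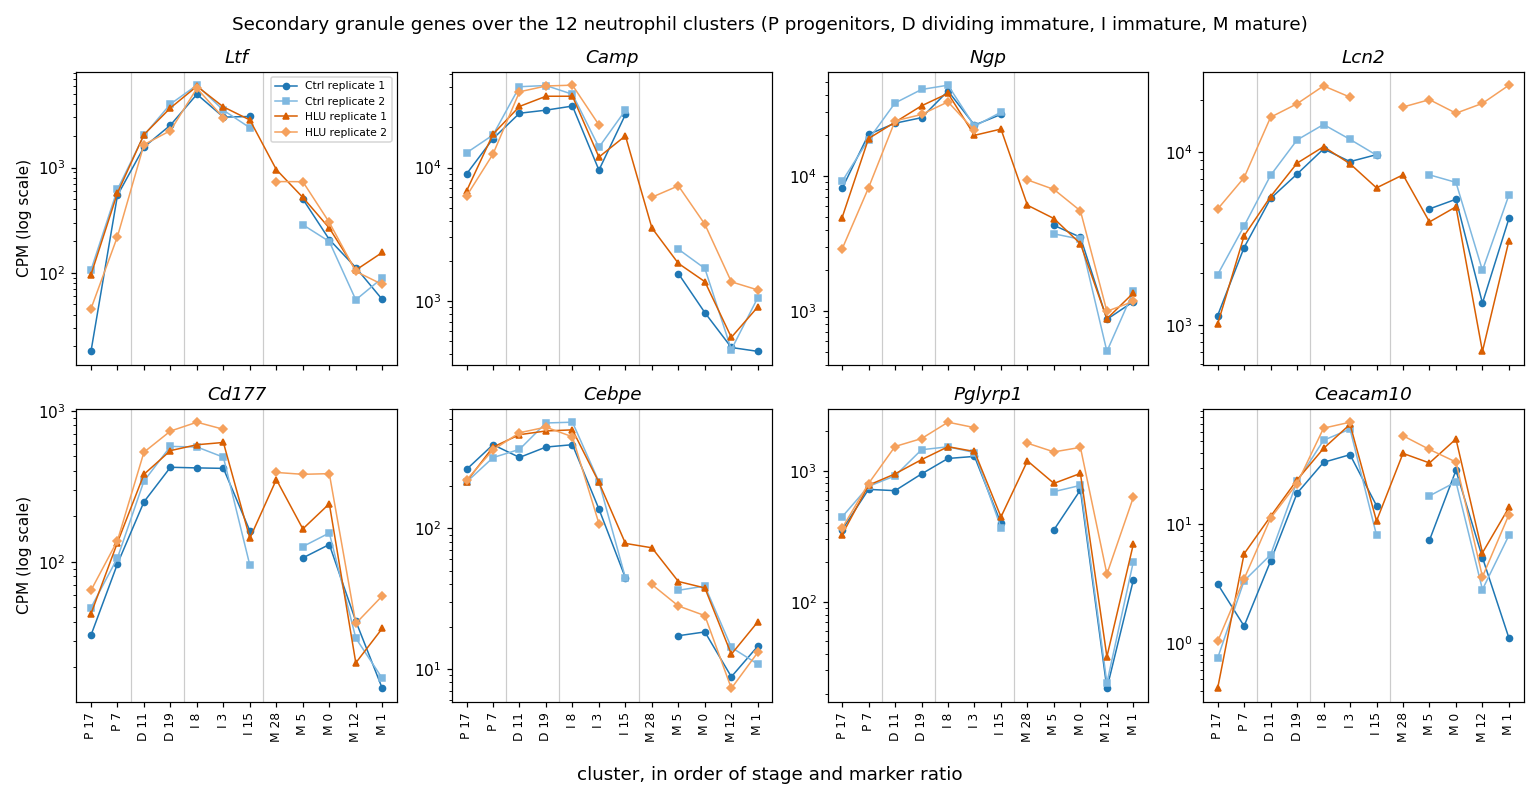
Level of each member (CPM, log axis) in the 12 clusters of neutrophils and progenitors, 1 line per library, with the clusters ordered by stage and, within a stage, by the ratio of earlier to later stage markers that are not members; clusters with under 20 cells of a library are left out. Lcn2 of HLU replicate 2 lies between 16757 and 24324 CPM in all 5 mature clusters, whereas Pglyrp1 of every library is lower in cluster 12 (21.9 to 163 CPM) than in cluster 0 (713 to 1505 CPM).

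Within a stage the clusters also differed. Among immature neutrophils, cluster 8 carried the highest Ngp, at 42751, 47193, 41027 and 35498 CPM, and the next cluster in the order, cluster 3, held 23859, 23417, 20057 and 21775 CPM. Camp differed more over this step, from 28833, 35312, 34150 and 41322 CPM to 9565, 14174, 11977 and 20844 CPM, and Cebpe from 393, 568, 501 and 447 CPM to 137, 214, 212 and 108 CPM. Ceacam10 went the other way, from 33.3, 51, 43.6 and 64.5 CPM in cluster 8 to 38.6, 63.4, 69.5 and 72.4 CPM in cluster 3. Cluster 15, which carried heat shock genes, had 748 cells. It supplied 203 of 677, 288 of 906, 238 of 1638 and 19 of 1248 immature neutrophils. Its ratio of immature to mature markers (-1.12 log2 units) was below that of mature cluster 28 (-0.99). The mix of cells named immature thus differed between libraries, and it enters the HLU comparison of that stage and of its drop to mature cells. Among mature cells, cluster 12 had the lowest Pglyrp1, at 21.9, 24.1, 38.2 and 163 CPM, against 713, 772, 953 and 1505 CPM in cluster 0. Lcn2 in cluster 12 was at 1342, 2075 and 707 CPM in the first 3 libraries and at 19103 CPM in HLU replicate 2, so the cluster that was lowest for Lcn2 among mature cells in the first 3 libraries was not low in the last.

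Over 86 sums of at least 50 cells (1 per cluster and library, all cell types), the genes whose log2(CPM + 1) ran closest to the mean of the 8 members were Itgb2l (Pearson r = 0.964), S100a9 (0.946), Mapk13 (0.93), Lrg1 (0.928), Abca13 (0.924), S100a8 (0.921), Lin28a (0.917), Mrgpra2b (0.917), Trem3 (0.912) and Hsd11b1 (0.909). The sums share libraries, depth and free RNA, and the values are a description. S100a8 and S100a9 encode the subunits of calprotectin, an abundant cytosolic protein of neutrophils, and Itgb2l a leukocyte integrin beta chain. Camp and Ngp were the closest pair of members (r = 0.976), and Lcn2 with Cebpe the most distant (0.562). Lcn2 ran closest to Wfdc21 (0.847) and C3 (0.828), whereas Cd177 ran closest to Itgb2l (0.97), Cebpe to Ffar2 (0.921) and Ceacam10 to Padi4 (0.914).

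The comparison of HLU with Ctrl asked whether these genes differed between the groups at a given stage. The mix of clusters within a stage also differed between libraries, and the fits do not adjust for it. In 4 fits over all genes, 0 of the 8 members passed an adjusted p of 0.05 in any stage (edgeR's quasi-likelihood test on UMIs summed per library and stage, 2 libraries per group). The share of all tested genes that passed was 0.426% in progenitors, 2.22% in dividing immature neutrophils, 1.74% in immature neutrophils and 2.9% in mature neutrophils. At an unadjusted p under 0.05 the members numbered 0, 0, 1 and 3 in these stages, beside 552 of 10331, 878 of 9315, 1097 of 9350 and 882 of 9255 genes in all. DESeq2 called 0 members in each stage, and 172, 256, 277 and 354 genes in all. The median log2 fold change of the members was -0.28 in progenitors, 0.43 in dividing cells, 0.6 in immature and 1.21 in mature neutrophils, beside medians of 0.05, 0.03, 0.04 and -0.01 over all genes tested. By CPM, both HLU libraries lay below both Ctrl libraries for 2 of 8 members in progenitors (9.06% of all genes tested). They lay above them for 3 of 8 in dividing cells (24.6%), 4 of 8 in immature neutrophils (18.2%) and 5 of 8 in mature neutrophils (14.7%). On the TMM scale of the fit, those counts were 4, 2, 5 and 4. The shares of all genes were taken by CPM only, so the TMM counts have no background beside them and are not read.

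**Figure D2:**
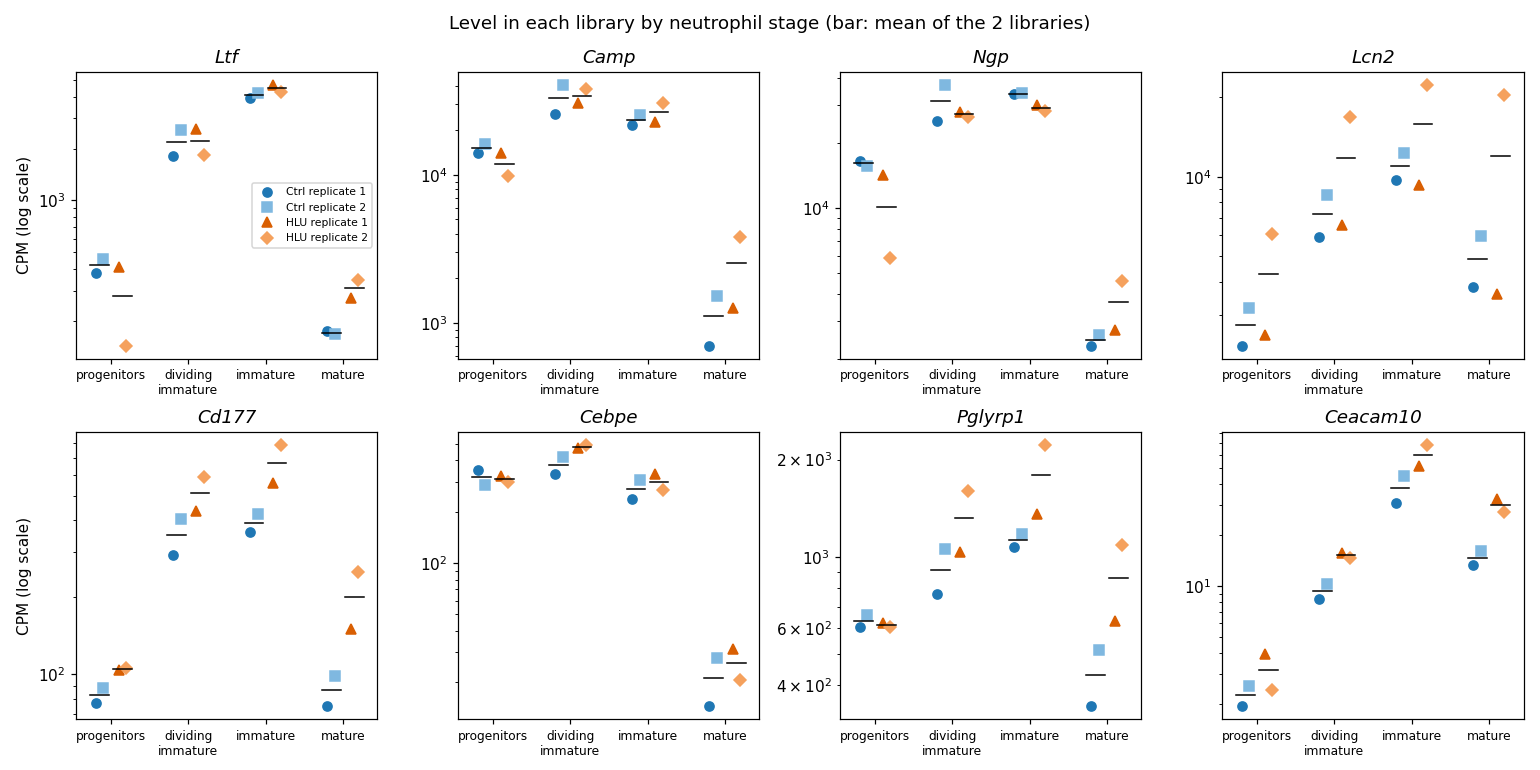
Level of each member (CPM, log axis) in each library by stage, with the mean of the 2 libraries of each group as a bar. Cd177 of both HLU libraries lies above both Ctrl libraries in all 4 stages by CPM (in progenitors not on the TMM scale), whereas Lcn2 of HLU replicate 1 lies among or below the Ctrl values and that of HLU replicate 2 above them.

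In mature neutrophils the 3 members with the smallest p-values were Ceacam10, Cd177 and Ltf. Ceacam10 was at 13.3, 16.1, 32.8 and 27.4 CPM, and its log2 fold change was 1.18 ± 0.37 (SE, edgeR adjusted p = 0.296). For Cd177 (75.2, 98.9, 151 and 252 CPM) it was 1.45 ± 0.52 (edgeR adjusted p = 0.426), and for Ltf (175, 168, 271 and 348 CPM) 1.06 ± 0.44 (edgeR adjusted p = 0.52). The HLU and Ctrl values of these 3 genes did not overlap, and none passed the adjusted test. Ngp and Pglyrp1 did not overlap either, with log2 fold changes of 0.83 ± 0.59 and 1.24 ± 0.57. Without HLU replicate 2 the log2 fold change was 0.1 for Ngp, 0.49 for Pglyrp1, 0.6 for Ltf, 0.73 for Cd177 and 1.09 for Ceacam10. Camp, Lcn2 and Cebpe overlapped between the groups. The log2 fold changes of Camp and Lcn2, 1.49 ± 0.81 and 1.64 ± 1, rested on HLU replicate 2: without it they were 0.11 and -0.51. With stages from clusters made without integration of the libraries, the log2 fold changes of Ltf, Camp, Ngp and Cebpe in mature neutrophils were -1.38, -1.52, -1.5 and -0.83, so their direction depended on the clustering. Those clusters split in part by library. Of 2365 cells in 1 mature cluster, 2292 came from HLU replicate 2, and another of 2077 cells held 928 and 1130 from the Ctrl libraries. A stage named this way need not hold the same kinds of cells in each library.

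In immature neutrophils Cd177 had the smallest p-value (log2 fold change 1 ± 0.42, unadjusted p = 0.0489 in the edgeR fit, edgeR adjusted p = 0.423). Pglyrp1 (0.91 ± 0.47), Ceacam10 (0.87 ± 0.39) and Ltf (0.3 ± 0.38, edgeR adjusted p = 0.774) also had both HLU libraries above both Ctrl libraries. Without HLU replicate 2 the log2 fold change was 0.38 for Cd177, 0.14 for Pglyrp1, 0.31 for Ceacam10 and 0.07 for Ltf. Ngp was lower in both HLU libraries by CPM, but its fitted log2 fold change was -0.04 ± 0.44 (edgeR adjusted p = 0.981) and the groups overlapped on the TMM scale. In progenitors the 3 members on chromosome 9 had negative log2 fold changes, Ngp of -0.88 ± 0.51, Ltf of -0.78 ± 0.56 and Camp of -0.56 ± 0.36, with 16604 and 15713 CPM of Ngp in Ctrl and 14284 and 5864 CPM in HLU. None passed the test (edgeR adjusted p = 0.797 for each), and without HLU replicate 2 the values were -0.32, -0.16 and -0.24. Dividing cells had log2 fold changes between -0.23 (Ngp) and 0.72 (Lcn2).

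The log2 fold changes differed with the HLU library used. With 1 HLU library left out, the spread in the fit comes from the 2 Ctrl libraries alone, and the lone HLU library is assumed to vary as they do. Calls from such fits are therefore not given. Without HLU replicate 2, Lcn2 was at -0.25, -0.28, -0.37 and -0.51 log2 units in HLU relative to Ctrl from progenitors to mature cells. Without HLU replicate 1, so that HLU replicate 2 alone stood for HLU, it was at 0.77, 1.27, 1.43 and 2.48. In mature neutrophils the members then ran from 0.37 (Cebpe) to 2.48 (Lcn2). In progenitors Ltf, Camp and Ngp were lower (-1.93, -1.01 and -1.85) and Lcn2 higher.

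**Figure D3:**
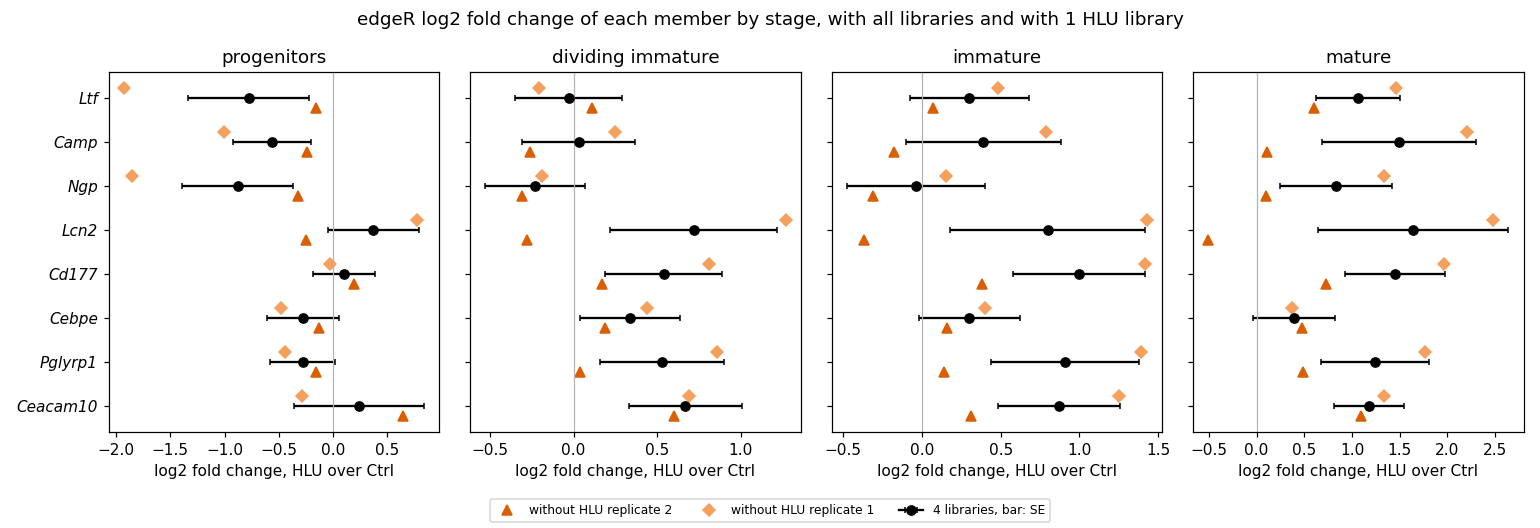
Log2 fold change of HLU over Ctrl for each member and stage, from edgeR fits with 4 libraries (black, bar: SE) and with 1 HLU library left out (triangles: without HLU replicate 2; diamonds: without HLU replicate 1). For Lcn2 the triangle lies below 0 and the diamond above 0 in all 4 stages.

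The drop from immature to mature neutrophils was compared between the groups by the interaction of stage and condition, with library as a block. All 8 members had a positive term, a smaller drop in HLU, with a median of 0.58 log2 units beside 0.14 over all genes tested. By edgeR 0 of 8 passed (0% of the 9963 genes tested passed), and 4 had an unadjusted p under 0.05 beside 528 of 9963 genes in all. DESeq2 called 0 members and 2 genes in all. The largest terms were those of Camp (1.07 ± 0.45), Ngp (0.9 ± 0.34) and Ltf (0.85 ± 0.26; edgeR adjusted p = 0.8). Without HLU replicate 1 the terms of Camp, Ngp and Ltf were 1.64, 1.31 and 1.09, and that of Lcn2 was 1.2. Without HLU replicate 2 the same terms were 0.33, 0.34 and 0.45, with Lcn2 at -0.19. When stages came from the clusters made without integration, which split in part by library, the terms of Ltf, Camp, Ngp and Cebpe were negative. They were -1.32, -1.59, -1.16 and -0.42.

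Over all neutrophils and progenitors together, where the mix of stages also counts, 0 of 8 members passed by edgeR, beside 1.75% of all genes tested. An unadjusted p under 0.05 was found for 0 members, beside 964 of 12205 genes. DESeq2 called 0 members and 473 of 12205 genes in all. Neutrophils and progenitors made up 36% and 44.6% of Ctrl and 73.3% and 64.2% of HLU libraries. The groups did not overlap, and 2 libraries against 2 cannot give a two-sided exact permutation p below 0.333, which was the p obtained. Progenitors made up 3.56% and 4.2% against 7.7% and 10.2% of cells, dividing immature neutrophils 3.17% and 3.82% against 6.01% and 8.71%, immature neutrophils 9.22% and 11.9% against 21.1% and 13.2%, and mature neutrophils 20% and 24.7% against 38.5% and 32.2%. Without integration the mature shares overlapped, at 23.5% and 29.7% against 35.6% and 24.5% (difference 3.46 points in place of 13, two-sided exact permutation p = 0.667), and the difference for immature neutrophils was 17.4 points in place of 6.59. Over all kept barcodes of a library the 8 genes together took 1.26% and 1.99% of UMIs in Ctrl and 3.24% and 3.58% in HLU. Of the HLU libraries, the one with more neutrophils had the smaller share. In shares of cells from a digest, more neutrophils and fewer other cells cannot be told apart.

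In the neutrophil stages edgeR called 0 of the other granule genes as well. In progenitors the 6 primary granule genes had a median log2 fold change of -0.32, and 2 of them were above 0. Prtn3 was at 3459, 3712, 2769 and 2850 CPM (-0.59 ± 0.29) and Elane at 4077, 5016, 3287 and 4208 CPM (-0.53 ± 0.29), both proteases stored in primary granules. Mpo (-0.11 ± 0.39) and Ms4a3 (0.16 ± 0.34) overlapped between the groups, as did Elane. These 6 genes were also the markers that named the progenitors. Of 14 other genes of later granules, 14 were above 0 in immature and 14 in mature neutrophils, with list medians of 0.68 and 0.88, and edgeR called 0 in each stage. Cybb, the catalytic subunit of the NADPH oxidase, was at 503, 669, 974 and 1499 CPM in immature neutrophils (1.31 ± 0.46, edgeR adjusted p = 0.367). Chil3, a chitinase-like protein, was at 2026, 2007, 2826 and 5450 CPM (1.29 ± 0.53), and both HLU libraries lay above both Ctrl libraries for both genes. Fcnb (ficolin B) was at 63, 101, 73.2 and 290 CPM, high in HLU replicate 2 alone. Fcnb, Chil3 and Cybb were also among the markers that named the immature stage. Of 9 regulators of granulopoiesis 0 were called in any stage. Cebpb, a C/EBP factor of emergency granulopoiesis, was at 1552, 1881, 1252 and 83.4 CPM in immature and 3333, 4442, 2907 and 338 CPM in mature neutrophils, so HLU replicate 2 was the low library for Cebpb in the same cells in which it was the high one for Lcn2. Whether both have one source was not tested.

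UMIs of the members were also counted in cells other than neutrophils. To compare cells of different depth, each cell was thinned to 1000 UMIs. At that depth Ngp was found in 98.5%, 97.5%, 98.4% and 99.6% of immature neutrophils, and in 19.6%, 33.3%, 32.2% and 18.3% of B cells, which should not make it. The exact 95% binomial interval was 14.1% to 26% in B cells of Ctrl replicate 1 and 97.3% to 99.3% in its immature neutrophils, and such intervals cover counting error only. Unthinned, the shares in B cells were 51.6%, 71.2%, 68% and 33.9%, at median depths of 3563, 3725.5, 3706 and 2636 UMIs, against 5009 to 7565.5 in immature neutrophils. Mature neutrophils had Ngp in 51.3%, 60.6%, 59.1% and 52.2% of cells, which was above B cells of the same library in each case. Cebpe was seen in 0.543% to 1.38% of thinned B cells and in 1.29% to 2.45% of mature neutrophils, and these ranges over all libraries overlapped. Within each group the mean share was higher in mature neutrophils than in B cells, at 1.66% against 0.695% in Ctrl and 1.98% against 1.18% in HLU.

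**Figure D4:**
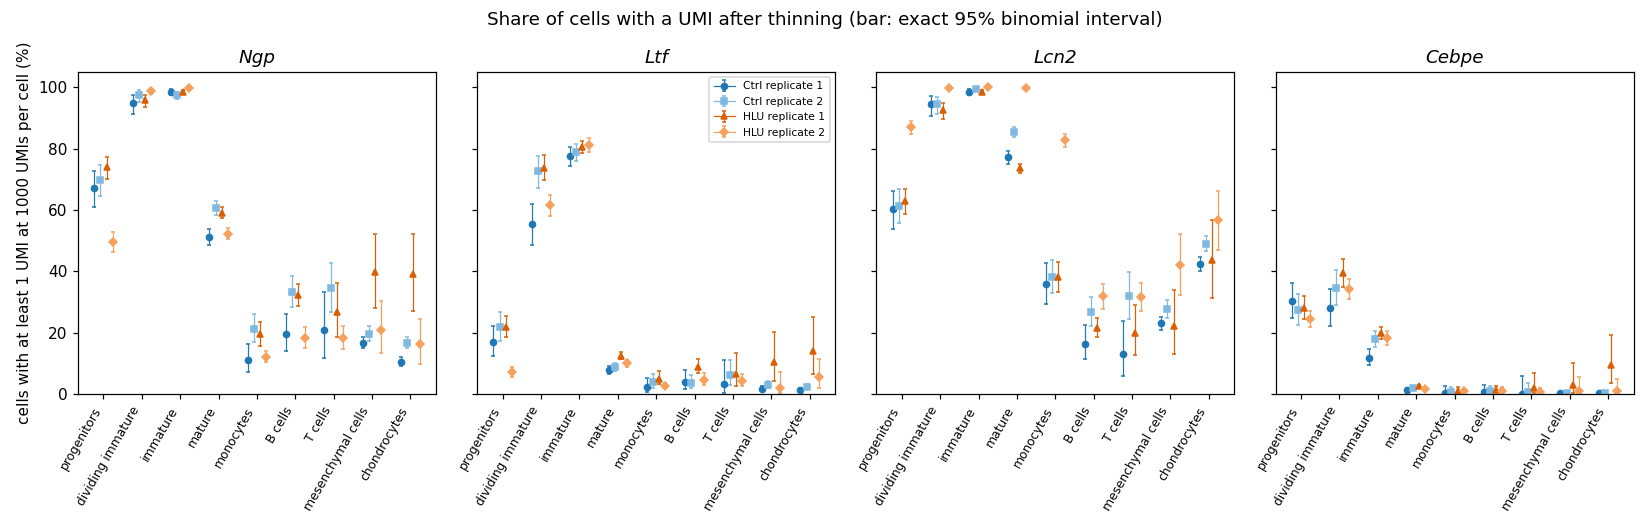
Share of cells with at least 1 UMI of Ngp, Ltf, Lcn2 or Cebpe after thinning to 1000 UMIs per cell, by class and library, with exact 95% binomial intervals. Ngp is found in 10.5% to 39.7% of B cells, T cells, mesenchymal cells, chondrocytes and monocytes, whereas Lcn2 reaches 82.8% of monocytes in HLU replicate 2.

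Of the UMIs of each member, 87.5% to 96.8% came from neutrophils and progenitors in every library, with Lcn2 as the exception. In the Ctrl libraries 41.9% and 49.4% of Lcn2 UMIs were in neutrophils and progenitors and 50% and 43.4% were in chondrocytes. In HLU the neutrophil share of Lcn2 was 92.7% and 86.9% and that of chondrocytes 0.483% and 0.914%, with 64 and 111 chondrocytes left in these libraries against 2079 and 1620 in Ctrl. Lcn2 in chondrocytes was at 4190, 6386, 1046 and 6649 CPM, beside 3838, 5953, 3593 and 20316 CPM in mature neutrophils. It was higher in chondrocyte cluster 2 (6095, 10352, 1863 and 10357 CPM) than in chondrocyte cluster 13 (704, 1304, 596 and 1904 CPM), in each library, with 20 and 70 cells of cluster 2 in HLU. A further chondrocyte cluster, 21, had 10 and 5 cells in HLU, and its level was not taken by itself.

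The proportion of Lcn2 to Ngp also differed between cell types, and within neutrophils between stages. Per UMI of Ngp, neutrophils and progenitors held 0.293, 0.356, 0.307 and 1.03 UMIs of Lcn2, and barcodes under 1000 UMIs, which include droplets without a cell, 0.735, 0.647, 0.378 and 2.02. Chondrocytes held 18.2, 20.2, 0.853 and 6.6, and monocytes 5.07, 3.76, 1.32 and 10.8. In both classes the ratio exceeded that of neutrophils and of low barcodes in each library, with the smallest excess in HLU replicate 1. Mature neutrophils taken alone had 1.67, 2.32, 1.32 and 4.45, which chondrocytes and monocytes exceeded in every library but HLU replicate 1. Camp per Ngp differed less between these classes and neutrophils with progenitors. It was 0.775, 0.904, 0.879 and 1.3 in neutrophils and progenitors, 0.85, 1.02, 0.89 and 0.823 in chondrocytes, and 1.1, 0.81, 0.762 and 1.04 in monocytes. Mature neutrophils taken alone had 0.306, 0.596, 0.464 and 0.839, below both classes except for chondrocytes of HLU replicate 2. B cells had 0.968, 1.04, 0.452 and 1.09 UMIs of Lcn2 per Ngp UMI. The part of free RNA in these values was not tested.

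**Figure D5:**
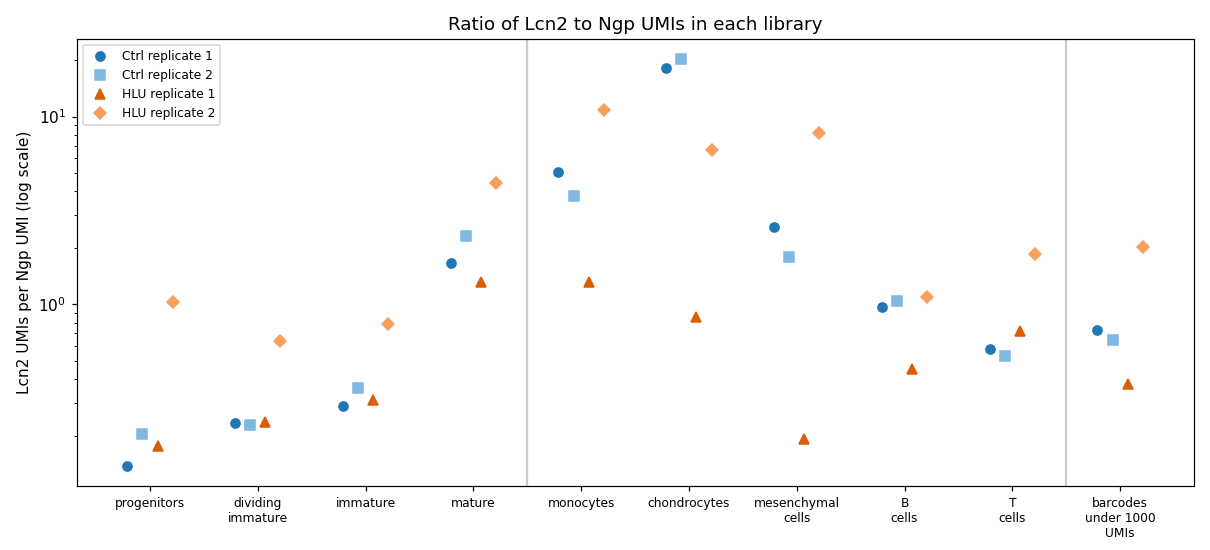
UMIs of Lcn2 per UMI of Ngp (log axis) in the 4 neutrophil stages, 5 classes of other cells and barcodes under 1000 UMIs, 1 point per library. Chondrocytes of both Ctrl libraries (18.2 and 20.2) and monocytes of HLU replicate 2 (10.8) lie above every neutrophil stage of the same library.

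Lcn2 in monocytes was at 963, 1186, 1072 and 4402 CPM and present in 35.8%, 38.2%, 38.1% and 82.8% of thinned cells, so HLU replicate 2 again stood alone and the other HLU library lay between the Ctrl values. Pglyrp1 in T cells was at 153, 107, 178 and 155 CPM. It made up 20.4%, 3.43%, 7.06% and 2.83% of the members' UMIs in T cells (191 UMIs in Ctrl replicate 1) and 1.65%, 1.63%, 2.11% and 2.43% in neutrophils and progenitors. Cebpe in basophils was at 6.07, 44.7, 75.2 and 50.7 CPM, from 2, 26, 70 and 61 UMIs. It made up 0.468%, 1.51%, 4.65% and 2.52% of the members' UMIs in basophils and 0.516%, 0.471%, 0.617% and 0.545% in neutrophils and progenitors, and 0.483%, 6.63%, 4.87% and 1.02% in basophils without doublets. The class named basophils also had the megakaryocyte markers Pf4 and Itga2b among its top genes. The finer clustering named 12, 22, 45 and 82 cells basophils and 36, 30, 39 and 45 cells megakaryocytes. The part of this mix in the Cebpe values was not tested.

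In the summed UMIs of B cells, edgeR called 4 members higher in HLU than in Ctrl. Few barcodes held most of these UMIs in HLU, and the calls were lost without barcodes scored as doublets. The doublet scores used all genes, the members included, and the number of barcodes so marked was set in advance. Leaving these barcodes out can therefore remove members' UMIs by itself, and no cause is read from the lost calls. DESeq2 called 5 members and 321 of 9305 genes in all. By edgeR 4 of the 7 members tested passed, all higher in HLU, where 3.27% of all genes tested passed. They were Ltf (17.5, 44.6, 294 and 331 CPM; log2 fold change 3.16 ± 0.44, edgeR adjusted p = 0.00854), Cd177 (1.25, 8.21, 45.7 and 89.8 CPM), Pglyrp1 (13.7, 39.3, 132 and 179 CPM) and Camp (168, 461, 1327 and 2700 CPM). Their log2 fold changes were 3.46 ± 0.64, 2.36 ± 0.47 and 2.57 ± 0.55, with edgeR adjusted p-values of 0.0254, 0.0364 and 0.0498. Ngp missed the threshold (197, 587, 1829 and 2222 CPM; 2.25 ± 0.48, edgeR adjusted p = 0.0534), as did Cebpe (2.12 ± 0.49) and Lcn2 (1.93 ± 0.65). Both HLU libraries lay above both Ctrl libraries for 7 of 7 (28% of all genes tested). Of 12 tested genes of later granules, edgeR called 4 higher in B cells too (and 1 of 13 in mesenchymal cells). The 6 markers of neutrophils of any stage were found, at summed levels of 5438, 8679, 25262 and 37852 CPM, with 1 of them (Ly6g) at 0 in Ctrl replicate 1, and the B cell gene Cd79a was at 1774, 1531, 2223 and 1132 CPM.

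The members' UMIs in B cells were held by few barcodes. The 5% of B cells with most of them held 23.7% and 53.3% of these UMIs in Ctrl and 77.5% and 90.9% in HLU. Without barcodes scored as doublets edgeR called 0 members in B cells, and 228 of 8914 genes in all. Ngp was then at 197, 323, 566 and 439 CPM. The log2 fold changes stayed above 0, at 2.6 for Cd177, 1.84 for Ltf, 1.41 for Pglyrp1, 1.02 for Camp, 0.8 for Ngp and 0.72 for Lcn2. The smallest edgeR adjusted p was 0.0721, for Ltf. The share of thinned B cells with Ngp (19.6%, 33.3%, 32.2% and 18.3%) overlapped between the groups, against the order of the CPM, so no order is read from either. With Ctrl replicate 1 left out and doublets kept, the log2 fold changes were 2.69 for Ltf, 2.02 for Camp and 1.67 for Ngp. With each library left out in turn, the log2 fold change of Ltf ran from 2.69 to 4.05.

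In the remaining classes edgeR called 0 members. The share of all genes tested that passed was 0.108% in monocytes, 0% in dendritic cells, 0.473% in T cells, 0.675% in basophils, 1.53% in mesenchymal cells and 0% in chondrocytes. Members with an unadjusted p under 0.05 numbered 5 of 7 in monocytes, 0 of 6 in dendritic cells, 1 of 6 in T cells, 0 of 6 in basophils, 2 of 7 in mesenchymal cells and 6 of 8 in chondrocytes. Over all genes tested they numbered 549 of 10184, 275 of 6891, 368 of 6133, 628 of 7554, 2980 of 11698 and 2422 of 12539 in the same order. DESeq2 called 1 member in monocytes (Pglyrp1) and 5 in chondrocytes (Ltf, Camp, Ngp, Cd177 and Pglyrp1), where it called 153 and 690 genes in all. It called 0 members in the other 4 classes. Over all genes it called 30 in dendritic cells, 55 in T cells, 59 in basophils and 998 in mesenchymal cells. In chondrocytes Ngp was at 230, 316, 1227 and 1008 CPM and Ltf at 24.1, 32.4, 207 and 103 CPM. The 6 neutrophil markers had summed levels there of 3078, 4049, 20806 and 25538 CPM. Lcn2 overlapped between the groups. The part of free RNA and mixed barcodes in these differences was not tested.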

How the data were processed

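Single-cell RNA was measured in 4 libraries, 2 Ctrl and 2 HLU, grouped by their labels. The deposited matrices hold raw UMI counts per gene and barcode, which the authors made with Cell Ranger 6.0.0 (the submitters' processing notes also name Seurat 4.1.0 and mm10). No per-sample column was left unmapped. Barcodes with 1000 to 40000 UMIs and at most 10% mitochondrial UMIs were kept, libraries were integrated and clustered in Seurat 5.3.0 without the members, and clusters were named from fixed markers. Doublets were scored with Scrublet (scanpy 1.11.5) from all genes, the members included, and the top scores were marked, with their number set in advance. They were kept, and were left out in an alternative. Counts were summed per library and stage or class (at least 20 cells) and tested with edgeR 4.0.16 (quasi-likelihood, TMM, Benjamini-Hochberg over all genes tested) in R 4.3.3, with DESeq2 1.42.0 as an alternative. Each library is 1 mouse, and 2 per group limit precision. On simulated counts for immature neutrophils edgeR recovered 98 of 100 genes changed by 2 log2 units and 22 of 100 changed by 1, with 7 false calls among 9350 genes. The simulated counts had the same fixed spread for every gene, and only genes with high counts were changed. The rates therefore need not hold for the members, whose spread between libraries differed by gene. Shares of cells were taken after thinning to 1000 UMIs, with exact binomial intervals (scipy 1.17.1) that cover counting error only. Further lists are given by counts, with up to 4 examples, the largest absolute log2 fold changes in immature neutrophils. The genes named as most like the members had the highest correlations. The members and lists were chosen with earlier results of these data known. Positions are from GENCODE (mm10), which matched 30934 of 31053 genes, and promoter windows from RefSeq, with 7 of 8 members matched.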

Additional observations from a re-analysis of the deposited data

Results flagged for a closer look

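The log2 fold changes of Camp and Ngp differed in sign between cell classes. In progenitors both HLU libraries lay below both Ctrl libraries by CPM (log2 fold change -0.56 for Camp and -0.88 for Ngp). Camp of HLU replicate 1 was close to that of Ctrl replicate 1 (14059 against 14130 CPM). Without HLU replicate 2 the values were -0.24 and -0.32. The dividing progenitor cluster supplied 57 of 261, 77 of 321, 135 of 597 and 380 of 963 progenitors. In B cells both HLU libraries lay above both Ctrl libraries by CPM (2.57 and 2.25). Once doublets, scored with the members included, were left out, the values in B cells were 1.02 and 0.8. EdgeR then called 0 members and 228 of 8914 genes in all. The share of thinned B cells with Ngp overlapped between the groups. Ngp was also lower in both HLU libraries in immature neutrophils by CPM (log2 fold change -0.04, with overlap on the TMM scale). In mature neutrophils it was higher (0.83, and 0.1 without HLU replicate 2). Except for the step from immature to mature neutrophils, where the interaction did not pass for either gene, the difference between classes was not tested.

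Members were also counted in barcodes that no comparison used. In barcodes under 1000 UMIs of HLU replicate 1 the 8 genes took 2.67% of UMIs, above the 1.18% and 2% of the Ctrl libraries. In clusters that received no name they took 2.32% and 3.48% of UMIs in the HLU libraries, against 0.289% and 1.19% in Ctrl.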

How the results depend on the processing

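With 2 libraries per group, leaving out 1 library leaves a group of 1, and the counts of genes called, members among them, then moved widely. Such counts are not given, and the range of the log2 fold changes is given here. Signs also changed, with log2 fold changes in progenitors from -0.25 to 0.77 for Lcn2, -0.03 to 0.19 for Cd177 and -0.29 to 0.64 for Ceacam10. In dividing cells they ran from -0.30 to 0.27 for Ltf, -0.30 to 0.42 for Camp, -0.53 to 0.10 for Ngp and -0.28 to 1.27 for Lcn2, and in immature neutrophils from -0.18 to 0.79 for Camp, -0.31 to 0.15 for Ngp and -0.37 to 1.43 for Lcn2. In mature neutrophils they ran from -0.51 to 2.48 for Lcn2 and -0.01 to 1.05 for Cebpe, and for the interaction from -0.19 to 1.20 for Lcn2. Without a filter on low counts edgeR called 1 member in mature neutrophils (847 of 16512 genes in all) and 5 in monocytes (550 of 16587). It called 7 in B cells (730 of 15942), 2 in T cells (215 of 14182) and 1 in basophils (268 of 14779). In mesenchymal cells it called 3 (2442 of 18665) and in chondrocytes 6 (1554 of 19297). Calls over all genes thus also increased in each of these classes. DESeq2 called 1 in monocytes and 5 in chondrocytes. With at least 10 counts in every library, 1 was called in B cells (19 of 6698 genes in all) and 2 in chondrocytes (219 of 6878). In thinned cells these were 1 (84 of 5639) and 4 (140 of 7039). In B cells 0 were called without doublets (228 of 8914 genes in all) and 1 without integration (67 of 8973). Neutrophil clusters made without integration split in part by library. Without integration log2 fold changes reversed for Cd177 in progenitors (-0.21), Cd177 and Cebpe in dividing cells (-0.01 each), Ltf and Cebpe in immature (-0.24 and -0.48), Ltf, Camp, Ngp and Cebpe in mature neutrophils (-1.38, -1.52, -1.5 and -0.83) and the same 4 genes in the interaction (-1.32, -1.59, -1.16 and -0.42). Values near 0 also changed sign, Ltf in progenitors at resolution 2 (0.01), Ltf in dividing cells without a filter (0.01), at resolution 0.5 (0.00) and 2 (0.02) and thinned (0.05), Camp in dividing cells by DESeq2 (0.00) and thinned (-0.01), Ngp in immature neutrophils at resolution 0.5 (0.02) and Cebpe there without the heat shock cluster (0.00), an alternative chosen after seeing the data. Unthinned, the mean share of cells with Ngp was 56.2% in B cells and 70.8% in chondrocytes, and with Lcn2 51.1% and 80.2%. The causes were not tested.

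The replicate numbers are shared between groups but pair nothing that the labels name, and same-numbered samples had correlations of deviations from -0.02 to 0.13. With the replicate block edgeR called 7 members in B cells, 2 in T cells and 1 in chondrocytes, and over all genes 563, 99 and 104, against 304, 29 and 0 without it. Basophils could not be fitted at resolution 2, with under 20 cells in a library.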
